A study of Mus musculus with 42 samples.

Results

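A set of 41 genes of the basement membrane and the interstitial matrix was followed across the anterior definitive endoderm (ADE) differentiation of mouse embryonic stem cells (ESC). The members were chosen by name, as known components of these matrices, but with earlier results of these data known. A larger share of calls among them than among all genes is therefore not independent of these data. All 41 were found among the 21382 gene symbols of the array through the RefSeq accession of a probe. They comprised 9 laminin chains, 4 type IV collagen chains, 6 nidogens, basement membrane proteoglycans and Sparc, 2 adhesive glycoproteins, 10 fibrillar and other interstitial collagens, 4 microfibril and fibulin genes, and 6 genes of the provisional and mesenchymal matrix. RNA was measured on 42 Agilent 1-colour arrays in 14 groups of 3, with 3 independent experiments per condition according to the series' design text. All cells came from 1 ESC line that carried GFP at Gsc and RedStar at Hhex, so that primitive streak (GSC, G) and endoderm (HHEX, H) cells could be isolated by fluorescence-activated cell sorting. The untreated series held ESC, unsorted cells on day 2 (d2), and the sorted populations d3 G- and G+, d4 G- and G+, d5 G-, Glow and Ghigh, and d6 G+H- and G+H+. The EPZ series held d6 cells that received DMSO throughout (Control), DMSO before and 2.5 µM EPZ6438 during differentiation (ADE_EPZ), or EPZ6438 before and DMSO during differentiation (ES_EPZ). EPZ6438 inhibits EZH2, the methyltransferase subunit of PRC2. Both series carried the same reporter alleles, rested on a single reporter line, and came from different slides, so no value of one series was tested against the other.

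Basement membranes are thin sheets of extracellular matrix that underlie epithelia. Laminin trimers of 1 α, 1 β and 1 γ chain and a network of type IV collagen form their core, nidogens and the heparan sulphate proteoglycan perlecan (Hspg2) join both, and integrins and dystroglycan anchor cells to them. The epiblast rests on such a sheet, which is breached at the primitive streak as cells ingress through a fibronectin-rich interstitial matrix, and definitive endoderm forms an epithelium again.

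The values are log2 intensities, background-corrected and quantile-normalised by the authors. A single probe, the brightest over all arrays, stood for each gene, and because probes differ in brightness only levels of the same gene were compared between groups. The members had 58 probes between them and 13 members had more than 1. Of the 41 members, 24 were well above background on all 42 arrays, 40 on at least 1 array, and Col4a3 on none. Groups were compared in 13 contrasts with limma over all 42 arrays, and a gene was called at an adjusted p (Benjamini-Hochberg over all 55681 probes) of at most 0.01 and an absolute log2 difference of at least 1.5. These were bulk samples, in which fewer cells that express a gene and less RNA of it per cell cannot be told apart.

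In every d5 population the third array stood apart from the other two for many members. The summed log2 level of 9 primitive streak and mesoderm markers was 98.92, 95.82 and 79.52 on the 3 d5 Ghigh arrays and 95.03, 86.6 and 75.73 on the d5 G- arrays. That of 6 definitive endoderm markers was 68.62, 70.22 and 77.95 in d5 Ghigh; this list includes Gsc and Hhex, the reporter loci of the sort. The median SD over members was 0.562 in d5 G- and lay between 0.208 and 0.387 in the 13 other groups. Day 5 results are therefore also given without the third array of each population.

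Of the 41 members, 27 had a promoter window in the RefSeq table (35 windows, mouse GRCm38.p6, 250 bases upstream of an annotated start). The 4 windows below belong to genes whose levels moved in the results that follow: Lama5 and Lamb1, chains of the laminin trimers of early epithelia, Fbln2, the member with the largest difference between G+ and G- cells, and Col11a1, which was called in both EPZ6438 regimens. Capitals mark GC boxes (GGGCGG or its complement CCGCCC, the Sp1 motif) and CCAAT boxes (CCAAT or its complement ATTGG).
Lama5 (chr2:180225860-180226109, minus strand): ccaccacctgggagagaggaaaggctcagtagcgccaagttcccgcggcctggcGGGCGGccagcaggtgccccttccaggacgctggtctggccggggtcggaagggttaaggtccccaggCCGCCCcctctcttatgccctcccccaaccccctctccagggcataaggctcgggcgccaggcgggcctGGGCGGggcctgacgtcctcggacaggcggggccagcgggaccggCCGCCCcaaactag
Lamb1 (chr12:31265043-31265292, plus strand): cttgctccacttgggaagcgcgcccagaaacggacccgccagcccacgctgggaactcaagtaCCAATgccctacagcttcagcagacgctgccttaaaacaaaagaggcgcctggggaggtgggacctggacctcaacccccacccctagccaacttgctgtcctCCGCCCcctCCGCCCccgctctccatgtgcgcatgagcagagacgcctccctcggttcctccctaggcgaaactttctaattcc
Fbln2 (chr6:91212514-91212763, plus strand): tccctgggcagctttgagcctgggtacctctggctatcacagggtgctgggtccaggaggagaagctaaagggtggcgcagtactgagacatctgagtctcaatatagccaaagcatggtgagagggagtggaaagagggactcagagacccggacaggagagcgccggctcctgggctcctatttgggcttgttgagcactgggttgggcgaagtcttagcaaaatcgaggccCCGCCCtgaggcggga
Col11a1 (chr3:114030290-114030539, plus strand): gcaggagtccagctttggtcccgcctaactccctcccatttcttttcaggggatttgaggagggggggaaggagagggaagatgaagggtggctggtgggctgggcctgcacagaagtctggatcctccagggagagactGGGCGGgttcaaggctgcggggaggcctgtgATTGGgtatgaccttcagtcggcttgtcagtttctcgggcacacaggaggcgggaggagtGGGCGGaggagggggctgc
The Lama5 window held 4 GC boxes, those of Lamb1 and Col11a1 2 each, and that of Fbln2 1. Lamb1 and Col11a1 each held 1 CCAAT box. GGGCGG, searched on both strands, was found in 19 of the 35 member windows (54.3%, 16 genes) and in 32.7% of all 32851 windows. CCAAT was in 25.7% of member windows and 33.8% of all, and TATAAA in 14.3% and 12.4%. Motifs of 3 factor families active in endoderm were also searched on both strands, of which AACAAT shares the letters CAAT with the CCAAT box: AGATAA, read by GATA factors, was in 0 member windows and 9.99% of all, the forkhead motif TGTTTAC in 2.86% and 3.17%, and the Sox motif AACAAT in 8.57% and 9.42%. These are matches of letters within 250 bases and say nothing of binding. The median number of CpG dinucleotides was 8 per member window and 6 per window of the whole table.

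Of the 41 members, 20 were called in at least 1 of the 13 comparisons and 21 in none. In the untreated series the group mean was highest in d5 Glow for 15 members, in d6 G+H+ for 10 and in ESC for 6. These ranks have no share over all genes beside them, and leading groups often overlapped the next. They include members near background: Vtn and Postn for d5 Glow (each well above it on 4 arrays) and Col5a2 for ESC (2 arrays). The members did not move as 1 block. Within the untreated series laminin β1 and γ1 and Sparc were highest at d6, and the type IV collagen pair reached its level by d4 to d5. By group mean, fibronectin was highest in G+ cells of d3 and fibulin 2 in Glow cells of d5. Their arrays overlapped those of d4 G+ and of d5 Ghigh, respectively. Laminin α1, perlecan and collagen XVIII had their highest mean in ESC.

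**Figure D1:**
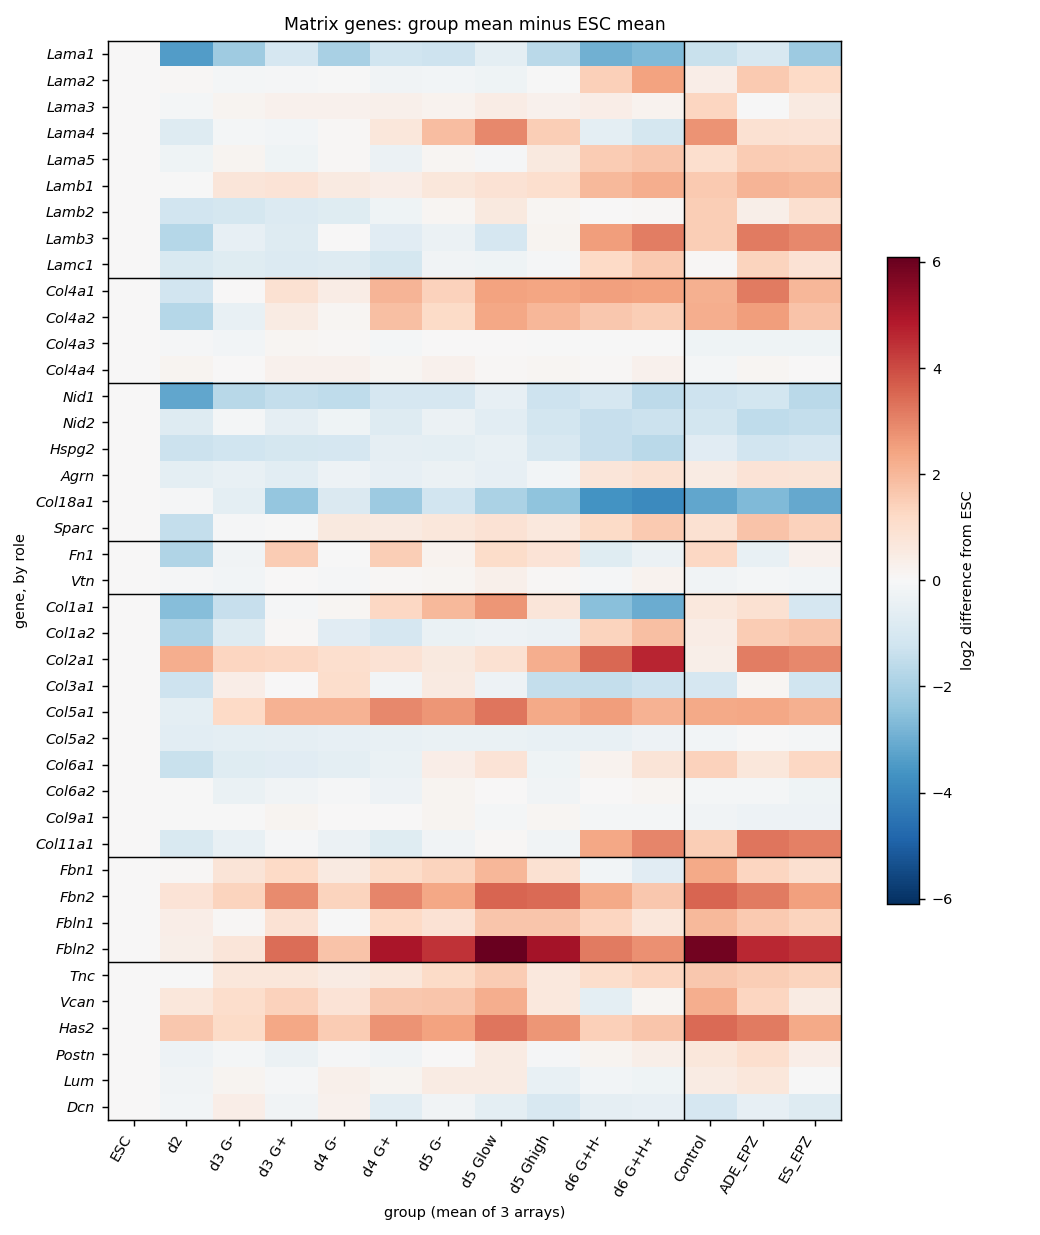
Heat map of the 41 members (rows, ordered by role) in the 14 groups (columns); colour is the group mean of the log2 intensity minus the ESC mean of the same gene, and the vertical line parts off the EPZ series, which lay on other slides than ESC. Lama1, Hspg2 and Col18a1 are below ESC in every other group, whereas Lamb3, Col2a1 and Col11a1 are highest in the d6 and EPZ6438-treated groups.

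Of the laminin chains, Lama1 encodes the α chain of the main laminin of the first embryonic basement membranes. It read 11.59, 11.27 and 12.02 on the 3 ESC arrays and 8.08, 8.47 and 8.15 in d2. In the G- populations it was 10.29, 9.55 and 8.55 at d3, 9.53, 10.68 and 8.69 at d4 and 11.62, 10.59 and 8.94 at d5. In the G+ populations it was 11.30, 10.79 and 9.68 at d3, 10.51, 10.84 and 9.92 at d4, 11.84, 11.51 and 9.76 in d5 Glow and 10.76, 10.38 and 8.82 in d5 Ghigh. ESC and d2 did not overlap, and the G+ and G- ranges overlapped on each day. At d6 Lama1 was 8.62, 9.27 and 8.13 in G+H- and 9.30, 10.04 and 7.45 in G+H+, all below the lowest ESC array. In the EPZ series it was 10.24, 10.73 and 9.88 in Control, 10.83, 11.30 and 9.80 in ADE_EPZ and 9.74, 9.76 and 8.74 in ES_EPZ, and the ES_EPZ arrays all lay below the Control arrays.

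Lamb1 and Lamc1 encode the β1 and γ1 chains shared by most laminins of early epithelia. Lamb1 was 12.91, 13.19 and 12.21 in ESC, 12.78, 12.76 and 12.72 in d2, 13.77, 13.45 and 13.29 in d3 G-, 13.81, 13.61 and 13.34 in d3 G+, 13.29, 13.60 and 13.09 in d4 G- and 13.03, 13.33 and 13.13 in d4 G+. At d5 it was 13.64, 13.45 and 13.27 in G-, 13.82, 13.63 and 13.55 in Glow and 13.72, 13.58 and 14.07 in Ghigh, and at d6 14.97, 14.38 and 14.83 in G+H- and 15.09, 14.92 and 14.99 in G+H+. The d6 arrays all lay above every earlier array. Control gave 14.37, 14.32 and 14.36, ADE_EPZ 14.83, 14.68 and 15.09 and ES_EPZ 14.55, 14.61 and 15.02, and both treated groups lay above Control without overlap. Lamc1 was 12.89, 12.92 and 12.57 in ESC, 12.13, 11.80 and 11.66 in d2, 12.36, 11.99 and 11.87 in d3 G-, 12.35, 11.88 and 11.65 in d3 G+, 11.90, 12.19 and 11.93 in d4 G- and 11.71, 11.83 and 11.63 in d4 G+. It was 12.91, 12.32 and 12.50 in d5 G-, 12.57, 12.38 and 12.69 in d5 Glow, 12.62, 12.52 and 13.07 in d5 Ghigh, and at d6 14.32, 13.74 and 14.03 in G+H- and 14.53, 14.16 and 14.41 in G+H+. Here, too, the d6 arrays lay above all earlier ones. In the EPZ series Lamc1 was 12.80, 12.89 and 12.95 in Control, 13.94, 14.09 and 14.36 in ADE_EPZ and 13.38, 13.53 and 14.04 in ES_EPZ, with no overlap of either treated group with Control. Over the 14 group means the levels of Lamb1 and Lamc1 had a Pearson correlation of 0.87, and those of Lama1 and Lamb1 one of -0.25. These correlations, and those over group means below, only describe groups of the same line that were normalised together. They pool the untreated and the EPZ series, which lay on different slides.

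Among the other α chains, Lama5, the α chain of the laminin of most epithelia, was 13.29, 13.43 and 12.62 in ESC and 14.73, 14.69 and 15.05 in d6 G+H+, and 1 array of d5 Ghigh (14.25) was the only one before d6 above 14. Lama2, the α chain of muscle laminin, stayed near background up to d5, with between 1 and 3 arrays of each group well above it, and was 7.28, 6.73 and 6.49 in d6 G+H- and 7.87, 7.83 and 7.83 in d6 G+H+. Lamb3, the β chain of epidermal laminin, was 7.05, 7.40 and 6.43 in ESC, 5.69, 4.88 and 5.12 in d2, 6.31, 6.42 and 8.66 in d5 Ghigh, and at d6 9.79, 8.66 and 10.15 in G+H- and 10.16, 9.19 and 10.87 in G+H+. The third d5 Ghigh array was more than 2 log2 units above the others and reached the level of the second d6 G+H- array. Lama4, the α chain of mesenchymal and endothelial laminins, ran the other way: it was 6.21, 6.24 and 5.93 in ESC, 10.09, 9.31 and 7.82 in d5 Glow and 8.72, 8.17 and 5.95 in d5 Ghigh. It was 4.96, 5.15 and 5.04 in d6 G+H+, on none of these arrays well above background. Lama3 group means lay between 6.98 and 8.40 and those of Lamb2 between 8.15 and 10.85, both highest in Control.

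**Figure D2:**
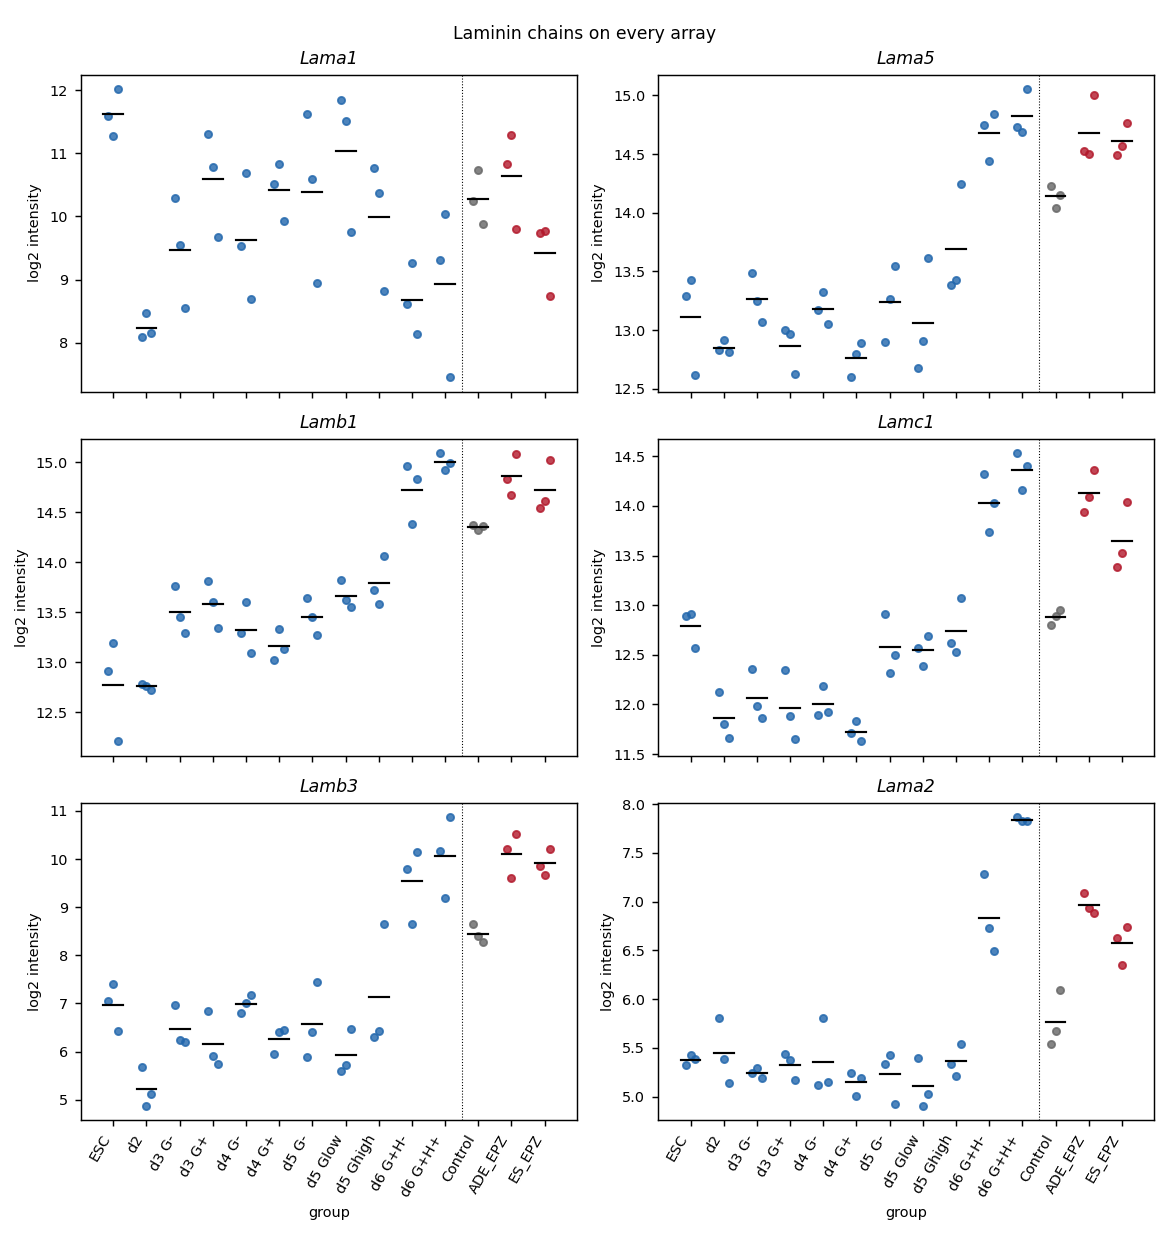
Log2 intensity of 6 laminin chains on each of the 42 arrays, by group (points are arrays, short lines are group means of 3; the dotted line parts the series). Lama1 falls from ESC to d2, and Lamb3, Lama2, Lama5, Lamb1 and Lamc1 are highest at d6 within the untreated series.

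In the collagen network of the basement membrane, Col4a1 and Col4a2 encode the α1 and α2 chains of the ubiquitous type IV collagen network. Their annotated starts lie head to head on chromosome 8 of GRCm38.p6, Col4a2 on the plus strand at 11312805 and Col4a1 on the minus strand at 11312826. Col4a1 was 9.17, 10.14 and 8.50 in ESC, 8.35, 7.80 and 8.22 in d2, 9.54, 9.46 and 8.86 in d3 G-, 10.31, 10.24 and 10.02 in d3 G+, 9.98, 9.66 and 9.57 in d4 G- and 11.65, 10.84 and 11.54 in d4 G+. The d3 and d4 G+ arrays all lay above the G- arrays of their day. It was 11.80, 10.58 and 9.63 in d5 G-, 12.10, 11.69 and 11.44 in d5 Glow, 11.90, 11.78 and 11.32 in d5 Ghigh, and at d6 11.65, 11.81 and 11.83 in G+H- and 11.53, 11.88 and 11.84 in G+H+. In the EPZ series it was 11.19, 11.66 and 11.48 in Control, 12.36, 12.38 and 12.61 in ADE_EPZ and 11.09, 11.59 and 11.25 in ES_EPZ. The ADE_EPZ arrays lay above both other groups, which overlapped.

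Col4a2 was 9.38, 10.12 and 8.24 in ESC, 7.96, 6.997 and 7.51 in d2, 9.27, 9.13 and 7.93 in d3 G-, 9.68, 9.94 and 9.55 in d3 G+, 9.72, 9.33 and 9.02 in d4 G- and 11.51, 10.47 and 11.32 in d4 G+. It was 11.62, 10.57 and 9.12 in d5 G-, 11.92, 11.64 and 11.27 in d5 Glow, 11.66, 11.47 and 10.64 in d5 Ghigh, and at d6 10.84, 10.94 and 10.94 in G+H- and 10.44, 11.08 and 10.73 in G+H+. As for its neighbour, G+ lay above G- at d3 and d4 without overlap. Control gave 11.38, 11.51 and 11.45, ADE_EPZ 11.66, 11.76 and 11.91 and ES_EPZ 10.81, 11.42 and 10.74. Over the 14 group means Col4a1 and Col4a2 had a Pearson correlation of 0.97, and of all genes on the array only Vasn (0.98) and Fignl2 (0.97) ranked above Col4a2 by this measure. Of the chains of the kidney and lung network, Col4a3 was well above background on no array and Col4a4 on 41 of 42, with group means from 4.41 to 4.82 and from 5.29 to 5.68.

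Sparc, a secreted collagen-binding glycoprotein abundant in endodermal basement membranes, was 15.20, 15.79 and 14.20 in ESC, 13.88, 13.63 and 13.39 in d2, 15.36, 15.17 and 14.47 in d3 G-, 15.76, 14.90 and 14.51 in d3 G+, 15.72, 15.72 and 15.49 in d4 G- and 15.68, 15.59 and 15.53 in d4 G+. It was 15.93, 15.92 and 15.45 in d5 G-, 16.22, 16.17 and 15.50 in d5 Glow, 15.86, 15.81 and 15.43 in d5 Ghigh, and at d6 16.57, 16.08 and 16.11 in G+H- and 16.75, 16.59 and 16.58 in G+H+. The G- and G+ ranges overlapped on d3 and d4. The EPZ series gave 16.09, 16.09 and 15.82 in Control, 16.84, 16.70 and 16.88 in ADE_EPZ and 16.49, 16.27 and 16.64 in ES_EPZ, both treated groups above Control without overlap.

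Col18a1, whose product is the proteoglycan collagen XVIII, and Hspg2 (perlecan) were highest in ESC. Col18a1 was 13.96, 14.19 and 13.82 in ESC, 13.58, 13.23 and 13.31 in d3 G-, 12.36, 11.28 and 11.18 in d3 G+, 13.00, 13.16 and 13.16 in d4 G-, 11.41, 11.63 and 12.22 in d4 G+ and 10.40, 10.41 and 9.49 in d6 G+H+. The G+ arrays lay below the G- arrays on both days, and the d6 arrays below both. Hspg2 was 12.10, 12.40 and 11.82 in ESC, 10.86, 10.75 and 10.80 in d2 and 10.60, 10.00 and 10.81 in d6 G+H+. Nid1, the linker of laminin and collagen IV, was 11.44, 10.98 and 11.04 in ESC, 8.12, 8.23 and 7.66 in d2 and 9.92, 9.60 and 9.15 in d6 G+H+. Group means of its paralogue Nid2 ran from 10.66 to 12.22 and were highest in ESC, and those of agrin (Agrn), a heparan sulphate proteoglycan, ran from 13.25 to 14.80 and were highest in d6 G+H+.

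**Figure D3:**
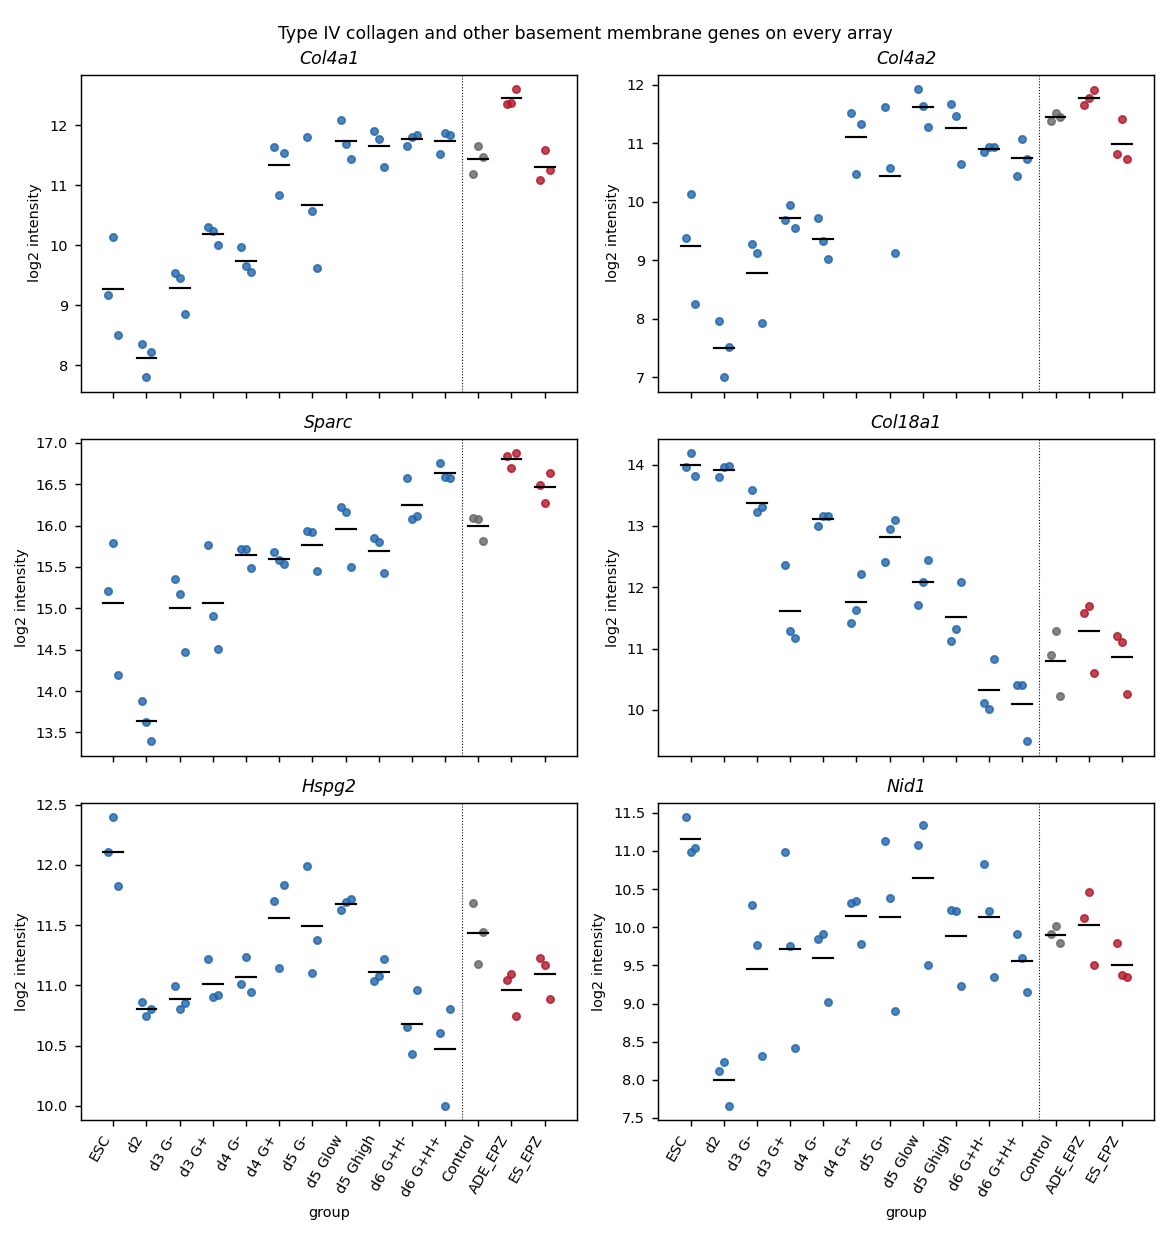
Log2 intensity of Col4a1, Col4a2, Sparc, Col18a1, Hspg2 and Nid1 on each of the 42 arrays, by group (points are arrays, short lines are group means of 3; the dotted line parts the series). Col4a1 and Col4a2 follow nearly the same course over the groups, while Col18a1 is about 14 in ESC and about 10 in d6 G+H+.

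Of the adhesive glycoproteins, Fn1 encodes fibronectin, the main adhesive protein of the matrix through which streak cells migrate. It was 14.77, 14.50 and 13.94 in ESC, 12.93, 12.47 and 12.25 in d2, 15.11, 14.22 and 13.30 in d3 G-, 16.17, 16.08 and 15.55 in d3 G+, 14.53, 14.86 and 13.71 in d4 G- and 15.97, 16.15 and 15.54 in d4 G+. The G+ arrays lay above the G- arrays on both days. It was 15.28, 14.88 and 13.64 in d5 G-, 15.86, 15.68 and 15.05 in d5 Glow, 15.98, 15.64 and 14.10 in d5 Ghigh, and at d6 14.16, 13.41 and 13.40 in G+H- and 14.39, 14.11 and 13.70 in G+H+. Control gave 15.77, 15.46 and 15.80, ADE_EPZ 14.15, 14.18 and 13.47 and ES_EPZ 14.88, 15.06 and 14.11, and both treated groups lay below Control without overlap. Vitronectin (Vtn), the serum adhesive protein, stayed at or near background, with group means from 4.66 to 5.17.

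Fbln2 encodes fibulin 2, which binds fibronectin, laminins and microfibrils. It was 6.84, 6.55 and 6.03 in ESC, 7.32, 7.08 and 7.21 in d3 G-, 9.51, 10.44 and 9.76 in d3 G+, 9.20, 7.88 and 7.57 in d4 G- and 12.15, 11.25 and 10.93 in d4 G+. It reached 13.17, 12.76 and 11.54 in d5 Glow and stood at 9.26, 9.34 and 9.19 in d6 G+H+. The G+ arrays exceeded the G- arrays by more than 1 log2 unit on both days. The fibrillins Fbn1 and Fbn2, which build the microfibrils, were likewise highest in d5 Glow among the untreated groups, and Fbln1 in d5 Ghigh.

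Col1a1, the α1 chain of type I collagen, varied most between the arrays of a group (SE 0.93 in every comparison of 2 groups). It was 9.42, 8.91 and 6.54 in ESC, 6.24, 5.49 and 5.42 in d2, 7.59, 6.93 and 6.06 in d3 G-, 9.78, 7.59 and 7.22 in d3 G+, 8.48, 8.89 and 7.82 in d4 G- and 8.79, 10.25 and 9.69 in d4 G+. It was 11.95, 10.37 and 8.49 in d5 G-, 12.32, 11.51 and 9.06 in d5 Glow, 10.90, 9.97 and 6.27 in d5 Ghigh, and at d6 5.43, 5.79 and 5.94 in G+H- and 5.03, 5.63 and 5.18 in G+H+. On d5 the third array was between 3 and 5 log2 units below the first in each population. The EPZ series gave 9.44, 8.93 and 8.47 in Control, 9.77, 10.03 and 7.88 in ADE_EPZ and 8.09, 7.89 and 5.83 in ES_EPZ. Col1a2, whose chain joins that of Col1a1 in type I collagen, did not share this course: it was 9.41, 9.61 and 8.40 in ESC, 9.44, 8.91 and 8.18 in d5 Glow and 11.83, 10.88 and 10.28 in d6 G+H+, and the correlation of both genes over the 14 group means was -0.24.

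Col2a1 and Col11a1 encode chains of the cartilage fibrils that are also made in early embryonic epithelia and the notochord. Col2a1 was 8.65, 8.79 and 7.41 in ESC, 10.51, 10.39 and 10.54 in d2, 9.53, 9.82 and 12.11 in d5 Ghigh, and at d6 12.25, 12.16 and 10.96 in G+H- and 12.92, 13.29 and 12.62 in G+H+. Col11a1 lay between 4.72 and 6.20 on every array up to d5, and was 9.02, 7.85 and 7.67 in d6 G+H- and 9.49, 8.66 and 8.22 in d6 G+H+. In the EPZ series Col2a1 was 8.65, 9.08 and 8.24 in Control, 11.14, 11.74 and 11.31 in ADE_EPZ and 11.36, 10.38 and 11.89 in ES_EPZ. Col11a1 was 7.26, 7.31 and 7.36 in Control, 9.06, 8.63 and 9.49 in ADE_EPZ and 8.88, 8.32 and 9.47 in ES_EPZ. For both genes every treated array exceeded every Control array.

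**Figure D4:**
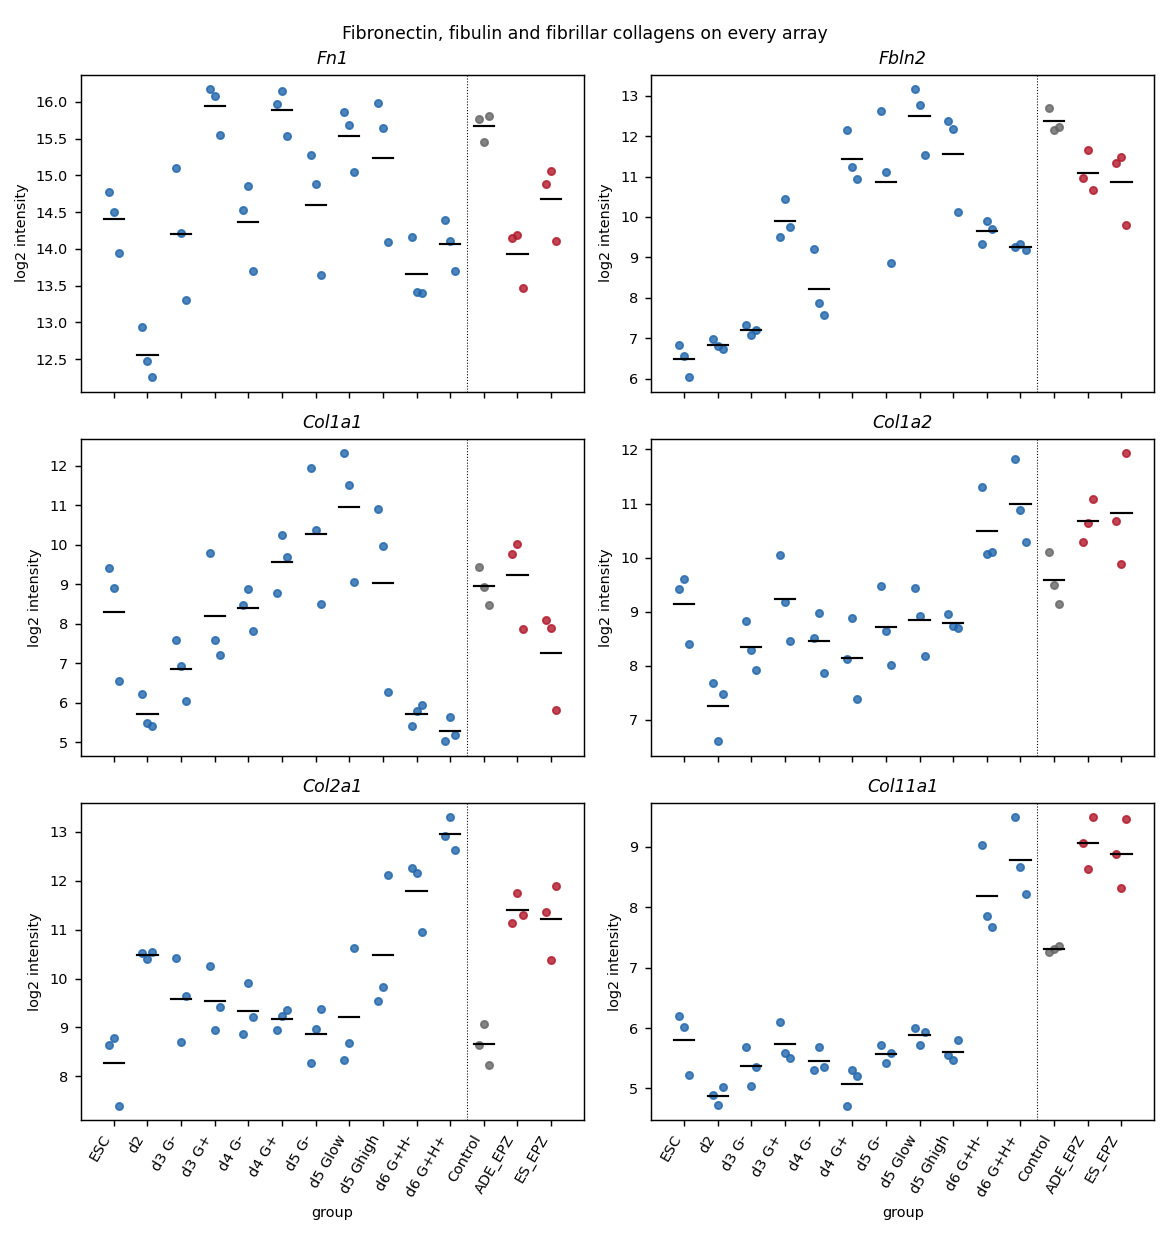
Log2 intensity of Fn1, Fbln2, Col1a1, Col1a2, Col2a1 and Col11a1 on each of the 42 arrays, by group (points are arrays, short lines are group means of 3; the dotted line parts the series). Fn1 and Fbln2 are higher in G+ than in G- at d3 and d4, Col1a1 is highest in d5 Glow, and Col2a1 and Col11a1 are highest at d6 in the untreated series.

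Among the other collagens, Col5a1, the fibril-initiating α1(V) chain, was 8.54, 8.93 and 7.63 in ESC and 11.14, 10.76 and 9.62 in d6 G+H+, with its highest group mean of 11.63 in d5 Glow. Col3a1 group means ranged from 5.21 to 7.72, Col6a1 from 5.13 to 7.89, Col6a2 from 5.45 to 6.01, Col9a1 from 5.49 to 6.00 and Col5a2 from 4.41 to 5.07. Of the provisional and mesenchymal matrix, Has2, the hyaluronan synthase, was 7.62, 8.94 and 7.46 in ESC, 11.06, 10.60 and 10.58 in d4 G+, 11.97, 11.53 and 10.36 in d5 Glow and 10.26, 9.93 and 8.88 in d6 G+H+. Group means of versican (Vcan), a hyaluronan-binding proteoglycan, ranged from 7.54 to 10.35, and those of tenascin C (Tnc), an antiadhesive glycoprotein, from 4.65 to 6.36. Decorin (Dcn), lumican (Lum) and periostin (Postn), genes of fibroblast matrix, had group means no higher than 6.38, 5.19 and 5.47.

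In unsorted d2 cells 4 members were called lower than in ESC and none higher. Lama1 fell by 3.39 on the log2 scale (10.5-fold lower, SE 0.65, limma adjusted p = 0.000676), Nid1 fell by 3.15 (SE 0.53, adjusted p = 0.000129), Fn1 fell by 1.85 (SE 0.43, adjusted p = 0.00489) and Col4a2 fell by 1.76 (SE 0.43, adjusted p = 0.00823). Over all genes 1.35% were called lower and 0.351% higher. The d2 arrays lay below all ESC arrays for 17 of the 41 members, against 12.5% of all genes, and above them for 4, against 15.2%. The median difference was -0.30 for the members and 0.02 for all genes. By role the lower calls were 1 of 9 laminin chains, 1 of 4 type IV collagen chains, 1 of 6 nidogens, proteoglycans and Sparc, and 1 of 2 adhesive glycoproteins. Col2a1, at 2.20 higher, missed the threshold (adjusted p = 0.0105). Of the 3 Nid1 probes only the brightest was called, another giving -0.58. The third ESC array carried lower values for several members (Col1a1, Col4a2, Sparc), and without it 8 members were called; without the first ESC array, or without the second or the third d2 array, 2 were. Of the 6 fits that each left out 1 of these arrays, 5 lost the call of Col4a2 and 4 that of Fn1. Here and below, the share of all genes called in fits that left out 1 array is not given. Such counts cannot tell a change of the members from one over all genes. The summed log2 level of 6 parietal endoderm markers, which include the members Lama1 and Sparc, was 48.31 to 50.22 in ESC and 40.92 to 41.72 in d2, with 1 of the 6 called lower. That of 6 pluripotency markers was 82.44 to 86.71 and 75.78 to 77.44, with 3 called lower, and the part of either list in the result was not tested.

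No member was called between d3 G- and ESC with limma, where 2.39% of all genes were. An unadjusted p under 0.05 was found for 13 of 41 members and for 27.6% of all genes. The largest difference was in Lama1, at -2.16 (SE 0.65, adjusted p = 0.0291). Hspg2 was -1.22 with an adjusted p of 7.41e-05 and did not reach the required size.

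The comparisons of G+ with G- cells of the same day asked how the matrix genes differed at the onset of the primitive streak. Fbln2 was higher in G+ on both days, Col4a1 at d4, and Col18a1 was lower at d3. At d3 the differences were 2.70 for Fbln2 (6.50-fold, SE 0.60, limma adjusted p = 0.00427) and -1.77 for Col18a1 (SE 0.33, adjusted p = 0.000671), with 0.697% of all genes called higher and 1.09% lower. At d4 they were 3.23 for Fbln2 (9.36-fold, SE 0.60, adjusted p = 0.000578) and 1.61 for Col4a1 (SE 0.34, adjusted p = 0.00251), with 0.804% of genes called higher and 1.45% lower. All 4 microfibril and fibulin genes lay higher in d4 G+ without overlap, as did 11 of the 41 members (13.8% of all genes). Another 7 members lay lower without overlap, and the share of all genes in that direction is not given here. The median difference over the members was 0.19 at d3 and 0.02 at d4, against 0.01 and 0.02 over all genes. Same-numbered arrays deviated together on these days, although the labels do not say that a number marks a shared experiment. With the number within the day as a block Fn1 was also called, at 1.73 at d3 (limma adjusted p = 0.000143) and 1.52 at d4 (adjusted p = 0.000373). Col4a2 was also called at d4, at 1.74 (adjusted p = 0.0015). With this block 2.15% of all genes were called at d3 and 2.66% at d4. Without the second or the third d3 G+ array no member was called at d3, and without the second or the third d3 G- array 1 was. At d4 none was called without the first G+ array, and 1 without the second or the third G- array. A difference of the G+ effect between d3 and d4 was called for no member (limma interaction, 0 members with an unadjusted p under 0.05, lowest adjusted p of 1). With the number within the day as a block 4 members had an unadjusted p under 0.05 (8.78% of all genes), the lowest adjusted p values being 0.228 for Col11a1 (d4 minus d3 -0.74) and 0.234 for Col1a2 (-1.20). The second Fbn2 probe was called higher in d3 G+ at 2.30, and the brightest, at 1.55, was not. Markers of other cells also differed in this contrast. Of 9 primitive streak and mesoderm markers 4 were called higher in G+ at d3 and 3 at d4, and of 8 mesenchyme and fibroblast markers 3 on each day. Those 8 did not all go 1 way: 5 had a positive difference on each day, and 1 at d3 and 2 at d4 lay lower without overlap. The pluripotency markers summed to 72.53 to 76.27 in G- and 59.65 to 62.57 in G+ at d3 and to 70.61 to 71.79 and 52.51 to 57.75 at d4, with 4 of 6 called lower on each day. The 6 definitive endoderm markers summed to 41.13 to 42.22 in G- and 47.7 to 59.08 in G+ at d3 and to 43.52 to 45.71 and 55.15 to 58.91 at d4, with 2 and 3 of them called higher. The part of these markers in the result was not tested.

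At d5 no member was called in any of the 3 comparisons, which share samples. Between Glow and G- 0.744% of all genes were called and the largest member difference was Fbln2 at 1.62 (SE 0.60, limma adjusted p = 0.245). Between Ghigh and G- 2.54% were called and Col3a1 was the furthest at -2.02 (SE 0.69, adjusted p = 0.0948), with Ghigh arrays at 5.30, 5.51 and 4.81 and G- arrays at 7.70, 7.89 and 6.08. Between Ghigh and Glow 0.262% were called and Col1a1 was the furthest at -1.92 (SE 0.93, adjusted p = 0.544). The counts of the 41 members with an unadjusted p under 0.05 were 8, 9 and 14, against 14.1%, 21.3% and 11.1% of all genes. Without the third array of every d5 population the 3 counts stayed at 0. Leaving out single arrays gave calls: without the first G- array 2 members were called in Glow against G- and 2 in Ghigh against G-, without the third Ghigh array 1 in Ghigh against G-, and without the third Glow array 1 in Ghigh against Glow. Same-numbered arrays deviated together for Glow with G- and for Glow with Ghigh. With the number within the day as a block Fbln2 was called in Glow against G- (limma adjusted p = 0.00611). Col1a1 (-1.92, adjusted p = 0.00867) and Vcan (-1.58, adjusted p = 0.000688) were called in Ghigh against Glow. With this block 1.14% of all genes were called in Glow against G- and 0.552% in Ghigh against Glow.

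From d5 Ghigh to d6 G+H-, Col11a1 rose by 2.57 (5.94-fold, SE 0.31, limma adjusted p = 1.09e-06) and Lamb3 by 2.41 (5.30-fold, SE 0.47, adjusted p = 0.000927), where 1.37% of all genes were called higher, and no member was called lower, against 0.772%. Lama2, at 1.48 higher (adjusted p = 4.2e-06), was just under the required size. Col1a1 was 3.33 lower with an adjusted p of 0.0232. With the replicate number as a block 6 members were called, against 2.32% of all genes, Lama4 (-2.10), Fn1 (-1.58), Col1a1 (-3.33) and Fbln2 (-1.91) being added as lower. Without the first or the second d5 Ghigh array, or the first d6 G+H- array, 1 member was called, and without the third d5 Ghigh array 10. Without the third array of every d5 population 11 members were called (3.59% of all genes), 4 higher and 7 lower, and among them Col1a1 was -4.72 (adjusted p = 6.1e-05) and Lama4 -2.93 (adjusted p = 1.57e-05). The summed level of the primitive streak and mesoderm markers was also lowest on the third d5 Ghigh array, as given above, and its part in these differences was not tested.

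The comparison of the ADE end point, d6 G+H+, with ESC gave the most calls: 15 members were higher and 3 lower. Among all genes 5.74% were called higher and 5.27% lower. Col2a1 was 4.66 higher (25.3-fold, SE 0.55, limma adjusted p = 2.78e-08), Lamb3 3.11 (8.64-fold, SE 0.47, adjusted p = 2.44e-06), Col11a1 2.98 (7.89-fold, SE 0.31, adjusted p = 1.45e-09) and Fbln2 2.79 (6.92-fold, SE 0.60, adjusted p = 0.000413). Col4a1 was 2.48 higher (5.56-fold), Lama2 2.46 (5.50-fold), Lamb1 2.23 (4.70-fold) and Col5a1 2.14 (4.41-fold), all with an adjusted p of at most 0.000312. Lama5, Lamc1, Sparc, Col4a2, Col1a2, Fbn2 and Has2 were between 1.503 and 1.858 higher, and of the 15 only Has2 had overlapping groups. Col18a1 was 3.89 lower (14.8-fold, SE 0.33, adjusted p = 2.39e-11), Lama1 2.69 lower (SE 0.65, adjusted p = 0.00148) and Hspg2 1.64 lower (SE 0.20, adjusted p = 7.1e-08).

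By role, 5 of 9 laminin chains were called higher and 1 lower (median 1.57), 2 of 4 type IV collagen chains higher, 1 of 6 nidogens, proteoglycans and Sparc higher and 2 lower, neither adhesive glycoprotein, 4 of 10 interstitial collagens, 2 of 4 microfibril and fibulin genes and 1 of 6 provisional matrix genes higher. The groups did not overlap for 17 members that were higher and 9 that were lower, against 22.3% and 22.5% of all genes, and the median difference was 0.28 for the members and 0.00 for all genes. Col1a1 (-3.01, adjusted p = 0.0138) and Nid1 (-1.60, adjusted p = 0.0228) were not called, and Agrn (0.91) and Tnc (1.32) passed the p but not the size. Probes did not all agree: another of the 3 Sparc probes gave 0.08, the second Hspg2 probe -1.06 and was not called, and 1 of 2 Fbn2 probes was called, both giving between 1.66 and 1.70. On the 1 slide that held arrays of both groups all 18 called members kept their direction, but the difference in Col4a2 was 0.32 there. Without the third ESC array 11 members were called. Of the 6 fits that each left out 1 array of either group, 5 lost the call of Col4a2, 5 that of Fbn2, 4 that of Has2 and 3 that of Col1a2. The summed log2 level of the 6 definitive endoderm markers was 32.19 to 32.83 in ESC and 77.93 to 78.85 in d6 G+H+, that of the parietal endoderm markers 48.31 to 50.22 and 51.15 to 55.08, and that of 6 endothelial markers 34.9 to 37.14 and 29.64 to 30.62, 5 of the 6 being well above background on no d6 G+H+ array. The visceral endoderm markers summed to 38.6 to 39.13 in ESC and 47.42 to 51.71 in d6 G+H+, and the pluripotency markers to 82.44 to 86.71 and 48.89 to 50.16. The part of these lists in the result was not tested.

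Within d6, HHEX-positive and HHEX-negative cells gave no call among members, and 0% of all genes passed. The largest member difference was Col2a1 at 1.15 (SE 0.55, limma adjusted p = 1), and 3 members had an unadjusted p under 0.05, against 5.97% of all genes. Lama2 was 1.00 higher in G+H+ with no overlap (adjusted p = 0.0771). Same-numbered arrays deviated together here. With the number within the day as a block 0.0468% of all genes were called, and still no member.

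**Figure D5:**
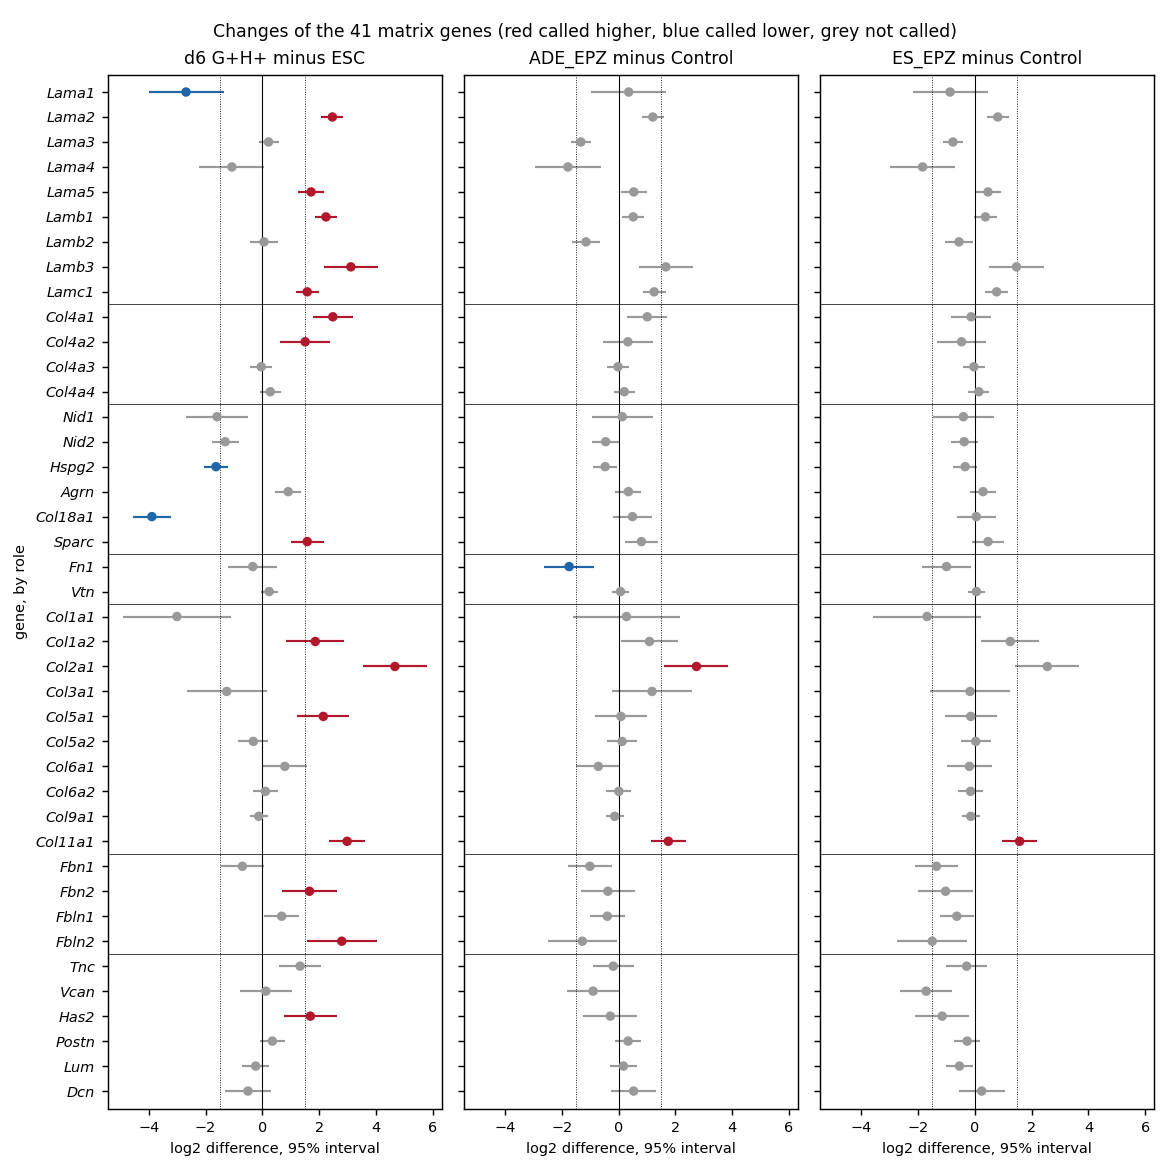
Log2 differences of the 41 members for d6 G+H+ minus ESC, ADE_EPZ minus Control and ES_EPZ minus Control; points are the fitted differences, bars their 95% intervals, red is called higher, blue called lower, grey not called, and dotted lines mark a difference of 1.5. Col2a1 and Col11a1 lie to the right of 1.5 in all 3 panels, and Fn1 is called lower in ADE_EPZ alone, a difference between the regimens that itself was not called.

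The EPZ series addressed how inhibition of EZH2 during differentiation or before it altered d6 cells. Both comparisons share the Control arrays. In ADE_EPZ, Col2a1 and Col11a1 were higher and Fn1 lower: the differences were 2.74 for Col2a1 (6.68-fold, SE 0.55, limma adjusted p = 0.000841), 1.75 for Col11a1 (3.37-fold, SE 0.31, adjusted p = 0.000172) and -1.74 for Fn1 (3.34-fold lower, SE 0.43, adjusted p = 0.00557). Among all genes 1.95% were called higher and 0.786% lower. The groups did not overlap for 14 members that were higher and 11 that were lower, against 19.9% and 19.7% of all genes, and the median difference was 0.13 for the members and -0.01 for all genes. In ES_EPZ only Col11a1 was called, 1.58 higher (2.99-fold, SE 0.31, adjusted p = 0.00511), where 0.36% of all genes were called higher and 0.0608% lower. Col2a1 was 2.56 higher with an adjusted p of 0.0111. The median over the members was -0.16, and over all genes -0.01. Of the laminin chains none was called in either regimen, but 5 of 9 lay higher without overlap in each, and 3 lay lower in ADE_EPZ and 4 in ES_EPZ; over all genes 14% lay higher and 14.1% lower without overlap in ES_EPZ. In ADE_EPZ, Lamc1 (1.25, adjusted p = 4.74e-05), Lama2 (1.203, adjusted p = 5.65e-05) and Lama3 (-1.33, adjusted p = 4.22e-06) passed the p but not the size, although the second Lama3 probe, well above background on 37 arrays, was called lower at -2.15, and Lamb3 (1.67, adjusted p = 0.0172) and Lama4 (-1.78, adjusted p = 0.036) the size but not the p. In ES_EPZ, Lama4 was -1.84 (adjusted p = 0.0883) and Vcan -1.71 (adjusted p = 0.0409). Of the type IV collagens, 3 of 4 lay higher in ADE_EPZ without overlap and none in ES_EPZ. Besides Col4a1 and Col4a2 this was Col4a4, by a narrow margin: its lowest ADE_EPZ array was 5.379 and its highest Control array 5.363. The 3 Col4a4 probes gave differences from -0.497 to 0.277. Of the microfibril and fibulin genes 3 of 4 lay lower in ADE_EPZ and 4 of 4 in ES_EPZ without overlap. No member was called between ADE_EPZ and ES_EPZ, where 0.126% of all genes were; Col1a1 differed most, at 1.96 (SE 0.93, adjusted p = 0.531), and Col4a1 was 1.14 higher in ADE_EPZ (adjusted p = 0.14) without overlap.

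All called members of the EPZ series kept their direction on each of the 3 slides that held 1 array of every regimen. The call of Fn1 in ADE_EPZ was lost in each of the 6 fits that left out 1 ADE_EPZ or Control array, and over all 17 alternatives its difference lay between -1.97 and -1.51 with an adjusted p of at most 0.0464. No member was called in ES_EPZ without any 1 of the 3 Control arrays, and also without the first or the third ES_EPZ array; without the second ES_EPZ array 2 members were called. The summed primitive streak and mesoderm markers were 91.92 to 92.68 in Control, 74.77 to 80.21 in ADE_EPZ and 76.89 to 87.33 in ES_EPZ, and 3 of the 9 were called lower in ADE_EPZ. The parietal endoderm markers summed to 49.03 to 52.84 in Control and 56.12 to 58.26 in ADE_EPZ, and the definitive endoderm markers to 67.7 to 70.98 and 74.69 to 77.67. The visceral endoderm markers summed to 43.98 to 46.8 in Control and 47.87 to 50.68 in ADE_EPZ, and the pluripotency markers to 48 to 49.8 and 53.56 to 56.84. The part of these differences in the matrix genes was not tested.

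A further 74 genes of matrix function, which are not among the 41, were read in the same comparisons: 17 other basement membrane components, 25 matrix receptors, 18 collagen chaperones, modifying enzymes and crosslinkers, and 14 proteases and inhibitors. These lists, too, were chosen with earlier results of these data known. In d6 G+H+ against ESC 12 of the 74 were called higher (16.2%) and 10 lower (13.5%), with a median of 0.11. Over all genes 5.74% were called higher and 5.27% lower. Of the components 3 were higher and 2 lower. Among those higher were Smoc2 (4.14) and Frem1 (3.60, not well above background in ESC, at least 10.7-fold higher), and Smoc1 (-1.87) was lower. Of the receptors Sdc3 (syndecan 3, 1.84) was higher, and Itga3 (-3.13) and the Lutheran laminin receptor Bcam (-2.43) were the furthest of 3 that were lower.

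Of the collagen modifying genes Pxdn (peroxidasin, which crosslinks collagen IV, 2.88) and Serpinh1 (the collagen chaperone HSP47, 1.81) were higher, and Pcolce (-3.61), an enhancer of procollagen processing, and the lysyl hydroxylase Plod2 (-2.61) lower. Of the proteases and inhibitors 6 were higher, with Adamts9 (3.47) and Mmp15 (2.97) furthest, and 3 lower, among them Htra1 (-2.91). At d2 none of the 74 was higher and 7 (9.46%) were lower than in ESC, among them Pcolce (-3.50), against 0.351% and 1.35% of all genes. Between G+ and G- the laminin receptor chain Itga3 (-1.75) and the syndecan Sdc4 (-2.05) were lower at d4, and at d3 Sdc4 was -1.88, the fibronectin receptor chain Itga5 1.71 and Adamts9 1.56. In ADE_EPZ 8 of the 74 were higher (10.8%) and 2 lower (2.7%) than in Control, against 1.95% and 0.786% of all genes. Higher were, among others, Col7a1, the anchoring fibril collagen (2.33), Smoc2 (1.80), Itga8 (2.34), Itgb4 (1.74), Mmp9 (2.91) and Plat (2.28), and lower were the integrin chains Itga9 (-2.06) and Itga6 (-1.68). In ES_EPZ only the inhibitor Timp3 was called, at 1.98 higher (1.35% of the 74, against 0.36% of all genes).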

How the data were processed

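RNA was hybridised to Agilent 1-colour arrays. The authors extracted spot intensity values with Agilent Feature Extraction (version 11.0.1.1 for the untreated and 12.0.1.1 for the EPZ series). They deposited log2 values that were background-corrected (normexp, offset 10) and quantile-normalised with limma. Spots of the same probe did not share a deposited value, lying up to 8.58 from their mean, and were averaged here per probe. Other deposited columns (probe names, accessions, slide position) served for annotation. The log2 table was set against values recomputed from the scanner intensity. With outlier spots left out, the correlation per array was at least 0.999979 and the median absolute difference 0.0645. With all spots the largest difference of a probe value was 5.32. No depth applies to arrays; the 3 arrays per group limit the precision. Probes were named through RefSeq accessions (GRCm38.p6 table). limma 3.58.1 (R 4.3.3) fitted 1 mean per group over all 42 arrays, with Benjamini-Hochberg adjustment over 55681 probes; a gene was called by the authors' thresholds for adjusted p (0.01) and log2 difference (1.5). The fit was tested on simulated data. Alternatives covered background offset, scaling, dim probes, slide and replicate blocks, and each array left out.

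The members and lists were chosen with earlier results of these data known. Values were given for called members, at most 8 per direction and comparison, for the largest difference where none was called, and for Lama1, Lamb1, Lamc1, Col4a1, Col4a2, Sparc, Fn1 and Col1a1 in every group; of each further list the 2 called genes with the largest difference per direction were named, except for some genes that are not reported here. Same-numbered arrays deviated together (correlation of their deviations from the group means over 0.1 in every pair) for d3, d4, Glow against G-, Ghigh against Glow, d6 G+H- against d5 Ghigh, d6 G+H+ against G+H-, and ADE_EPZ against ES_EPZ, and not for the other comparisons. For d3, Glow against G-, d6 G+H- against d5 Ghigh and ADE_EPZ against ES_EPZ, some or all same-numbered arrays also shared a slide. There a shared experiment and a shared slide cannot be told apart. The block within the day and the exclusion of the third d5 arrays were chosen after seeing the data.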

Additional observations from a re-analysis of the deposited data

How the results depend on the processing

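Of the 38 differences recomputed (called members, and the largest where none was called) none changed its direction under any alternative. The number of members called moved by more than 1.5 times under these settings. With the processed signal scaled by the 75th percentile 0 were called in ES_EPZ against Control, and with probes well above background on at least 3 arrays 2 were. With only the compared groups in the fit the counts were 1 for d3 G+ against G-, 0 for d6 G+H- against d5 Ghigh, 5 for ADE_EPZ and 0 for ES_EPZ. With slide as a fixed block they were 5 for d4 G+ against G-, 1 for d5 Ghigh against G- and 6 for d6 G+H- against d5 Ghigh, and in a fit to the EPZ series alone 0 for ES_EPZ. With slide as a random block they were 8 for d2 against ESC, 1 for d3 G- against ESC, 5 for d4, 6 for d6 G+H- against d5 Ghigh and 3 for ES_EPZ. With the replicate block they were 7 for d2 (1.81% of all genes called), 2 for d3 G- against ESC (2.52%) and 4 for d4 (2.48%). With the same block they were 6 for d6 G+H- against d5 Ghigh (2.32%), 5 for ADE_EPZ (adding Lamb3 and Lama4, 2.84%) and 2 for ES_EPZ (adding Vcan, 0.585%). Of these comparisons, same-numbered arrays deviated together for d4 and for d6 G+H- against d5 Ghigh, and not for the others. With the replicate block within the day the counts were 4 for d4 (2.66% of all genes called), 1 for d5 Glow against G- (1.14%) and 2 for d5 Ghigh against G- (Col2a1 1.61 and Col3a1 -2.02, 2.97%). They were 2 for d5 Ghigh against Glow (0.552%), 4 for ADE_EPZ (adding Lamb3, 2.75%) and 0 for ES_EPZ, where 0% of all genes were called. When any probe of a member could be called, d5 Ghigh against G- had 1. Without the third array of every d5 population d6 G+H- against d5 Ghigh had 11. Where no share of all genes is given, a change particular to the members cannot be told from one over all genes. The cause of these shifts was not tested.

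Leaving out 1 array at a time gave 2 to 8 members for d2 against ESC, 0 for d3 G- against ESC, 11 to 17 for d6 G+H+ against ESC, 0 to 2 for d3 G+ against G-, 0 to 3 for d4, 0 to 2 for d5 Glow against G-, 0 to 2 for d5 Ghigh against G-, 0 to 1 for d5 Ghigh against Glow, 1 to 10 for d6 G+H- against d5 Ghigh, 0 for d6 G+H+ against G+H-, 2 for ADE_EPZ, 0 to 2 for ES_EPZ and 0 for ADE_EPZ against ES_EPZ. The share of all genes called in these fits is not given, so a shift particular to the members cannot be told from one over all genes. With 3 arrays per group, their number limits the precision.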
